A study of Mus musculus with 36 samples.

Results

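Chromatin accessibility was compared between HP1γ-deficient (KO) and wild-type (WT) conventional CD4 T cells (Tconv) that had responded to an allograft in the presence of regulatory T cells (Treg). The comparison rests on 6 of the 36 ATAC-seq libraries of the study, namely all 3 KO and all 3 WT libraries of HP1γ Tconv transferred together with Treg, and it covers all peaks of the deposited table. ATAC-seq uses a transposase to cut and tag DNA that is not wrapped up in compact chromatin, so that reads pile up over open regulatory regions. KO cells came from Hp1g flox/flox mice with Cd4-cre, and WT cells from flox/flox littermates without Cre, on a mixed 129/Sv and C57BL/6 background. A transgene effect of Cre itself and the loss of HP1γ therefore cannot be told apart. Naive CD4 T cells of either genotype were injected with ex vivo expanded WT Treg into irradiated C57BL/6J or CD45.1+ B6 mice that received C57BL/6J and B6D2F1 bone marrow, and TCR Vβ6+ allospecific Tconv were sorted from the spleen 3 weeks later. For reference, the same genotypes were also profiled as Tconv transferred without Treg and as naive cells before transfer, with 3 libraries in each group. The labels do not state that libraries of a group came from separate animals, so p-values measure the spread between these libraries, which may be technical.

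HP1γ, encoded by Cbx3, is a reader of histone H3 methylated at lysine 9, the mark that SUV39H1 and related enzymes write on silent chromatin. It is found in heterochromatin and also over the bodies and regulatory regions of genes, where it is known to help keep chromatin compact and to influence transcription. Treg restrain Tconv in part by pushing them towards anergy or exhaustion, states of low responsiveness that are marked by inhibitory receptors such as PD-1, by the ectonucleotidases CD39 and CD73, and by regulators such as TOX. In activated T cells, open chromatin away from promoters is built largely by AP-1 factors together with NFAT, BATF and IRF4, whereas GATA3 and T-bet shape the Th2 and Th1 programmes.

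The sequences of 7 peaks that the results below turn on are shown here, as the 300 bases at the middle of each peak on the plus strand of GRCm39. The first group holds peaks that were more open in KO cells, near the AP-1 factor gene Batf, near the start of a shorter transcript of the kinase gene Oxsr1, in an intron of Tox, the regulator of T cell exhaustion, and in an intron of Havcr2, which encodes the inhibitory receptor TIM-3. Capitals mark matches to the AP-1 motif TGANTCA, the NFAT motif TTTTCCA or the NR4A motif AAAGGTCA on either strand.
Batf, chr12:85726001-85726300: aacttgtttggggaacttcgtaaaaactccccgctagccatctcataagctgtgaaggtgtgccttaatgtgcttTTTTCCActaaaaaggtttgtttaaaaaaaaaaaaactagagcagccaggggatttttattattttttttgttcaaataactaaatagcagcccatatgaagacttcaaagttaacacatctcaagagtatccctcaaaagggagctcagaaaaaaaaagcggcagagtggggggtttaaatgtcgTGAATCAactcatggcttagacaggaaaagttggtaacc
Oxsr1, chr9:119094871-119095170: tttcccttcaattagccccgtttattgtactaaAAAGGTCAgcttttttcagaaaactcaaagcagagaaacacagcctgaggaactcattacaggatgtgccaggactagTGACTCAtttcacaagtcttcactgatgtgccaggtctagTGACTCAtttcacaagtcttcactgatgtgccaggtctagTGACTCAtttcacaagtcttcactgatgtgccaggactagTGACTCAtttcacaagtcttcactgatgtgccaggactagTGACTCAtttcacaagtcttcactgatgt
Tox, chr4:6940976-6941275: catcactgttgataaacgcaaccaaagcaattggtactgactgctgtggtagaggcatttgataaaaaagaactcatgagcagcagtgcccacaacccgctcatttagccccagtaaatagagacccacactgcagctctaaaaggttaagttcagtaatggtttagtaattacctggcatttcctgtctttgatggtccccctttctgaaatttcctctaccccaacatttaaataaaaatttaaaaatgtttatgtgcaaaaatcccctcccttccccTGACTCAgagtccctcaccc
Havcr2, chr11:46365191-46365490: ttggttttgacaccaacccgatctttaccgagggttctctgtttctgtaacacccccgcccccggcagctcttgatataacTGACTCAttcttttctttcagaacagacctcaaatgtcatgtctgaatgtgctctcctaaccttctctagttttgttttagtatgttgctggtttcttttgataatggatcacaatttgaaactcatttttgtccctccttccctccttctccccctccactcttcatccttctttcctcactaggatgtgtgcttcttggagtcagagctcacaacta
The Oxsr1 window held 5 AP-1 matches, all in a tandem repeat, and 1 NR4A match. In the Batf window there was 1 AP-1 match and 1 NFAT match, and the Tox and Havcr2 windows had 1 AP-1 match each.

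The second group holds peaks that were less open in KO cells, in introns of Gata3, the Th2 master regulator, of Il1rl1, which encodes the IL-33 receptor ST2, and of Slamf1, which encodes a costimulatory receptor. Capitals mark matches to the GATA motif AGATAA or the RUNX motif TGTGGTT on either strand.
Gata3, chr2:9874041-9874340: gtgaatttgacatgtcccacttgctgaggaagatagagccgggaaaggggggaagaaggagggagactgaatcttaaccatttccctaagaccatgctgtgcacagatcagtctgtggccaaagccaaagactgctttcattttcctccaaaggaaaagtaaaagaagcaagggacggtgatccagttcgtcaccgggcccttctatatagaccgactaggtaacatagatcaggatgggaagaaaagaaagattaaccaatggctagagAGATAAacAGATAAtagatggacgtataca
Il1rl1, chr1:40480931-40481230: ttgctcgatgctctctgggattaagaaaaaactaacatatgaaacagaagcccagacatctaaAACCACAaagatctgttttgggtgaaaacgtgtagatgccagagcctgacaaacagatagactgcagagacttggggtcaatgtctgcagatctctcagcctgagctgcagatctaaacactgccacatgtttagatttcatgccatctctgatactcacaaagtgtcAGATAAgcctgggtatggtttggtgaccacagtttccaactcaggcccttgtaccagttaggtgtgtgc
Slamf1, chr1:171623801-171624100: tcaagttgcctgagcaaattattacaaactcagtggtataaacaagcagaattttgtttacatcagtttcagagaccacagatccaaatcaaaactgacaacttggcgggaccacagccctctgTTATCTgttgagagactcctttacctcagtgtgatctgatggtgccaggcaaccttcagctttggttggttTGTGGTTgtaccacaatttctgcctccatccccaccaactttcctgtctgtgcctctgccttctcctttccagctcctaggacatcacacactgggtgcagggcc
The Gata3 window held 2 GATA matches, while the Il1rl1 and Slamf1 windows each had 1 GATA and 1 RUNX match. A match says only that these letters are present, not that a factor was bound. The Havcr2 and Gata3 peaks were chosen after their values were seen.

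The KO libraries held between 39.6 and 64.2 M reads in peaks and the WT libraries between 19.4 and 51.7 M (M, mega), with the lowest depth in WT replicate 3. Promoter peaks, lying up to 1 kb from any annotated transcription start site (TSS), took between 71.9% and 74.8% of the reads in each of the 6. Libraries of one group correlated at 0.95 to 0.98 across peaks on the log2 scale, and libraries of different genotype at 0.89 to 0.97, peaks not being independent replicates. KO replicate 2 correlated with KO replicate 3 at 0.977, with WT replicate 1 at 0.970 and with KO replicate 1 at 0.953. The targeted gene could not serve as a check of the labels. The TSS of Cbx3 shares a peak with the adjacent gene Hnrnpa2b1 (chr6:51444471-51448810), where the KO libraries had 165, 175 and 166 reads per M reads in peaks (CPM, after TMM scaling) and the WT libraries 170, 151 and 147, always given in the order of replicates 1 to 3. KO and WT overlapped there, and the log2 fold change was 0.11 ± 0.07 (SE), with an edgeR adjusted p of 0.223.

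Loss of HP1γ went with altered accessibility at 8482 of the 71508 peaks tested, or 11.9%, of which 4635 (6.48%) were higher and 3847 (5.38%) lower in KO than in WT. Calls needed an edgeR adjusted p under 0.05 and a log2 fold change over 1 in size, and 25620 peaks had an unadjusted p under 0.05. The median log2 fold change was 1.48 among the peaks called higher and -1.34 among those called lower, and 797 and 262 of them passed 2 in size. In bulk libraries, a smaller share of cells with an open site and less opening per cell cannot be told apart. The KO and WT libraries did not overlap at 3729 (80.5%) of the higher and 3398 (88.3%) of the lower peaks, against 31.4% of all peaks. Higher calls made up 54.6% of the total, and this balance moved with the scaling, the test and the libraries used. With lower calls in the majority, it was 45.5% when scaled by library size alone (3906 higher, 4688 lower), 49.4% in DESeq2 (4353 and 4463) and 44.8% by the older quasi-likelihood method of edgeR (3435 and 4234), and it was 44.7% without WT replicate 1. In the other direction it was 66.5% with loess offsets on abundance (5597 higher, 2815 lower), 66.8% with offsets on GC content (5735 and 2852) and 70.0% with a covariate for how many reads fell near a TSS (6543 and 2798). The number of calls rested in part on KO replicate 1 and WT replicate 2. Without the former, 2412 peaks were called higher and 1307 lower, and without the latter 2394 and 1329. The count fell as far, to 2018 higher and 1638 lower, when only the 6 libraries with Treg were fitted. No peak was called in the opposite direction in any of these fits. With the replicate number as a block, 5333 peaks were higher and 5708 lower, and 8422 of the 8482 calls were shared.

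**Figure D1:**
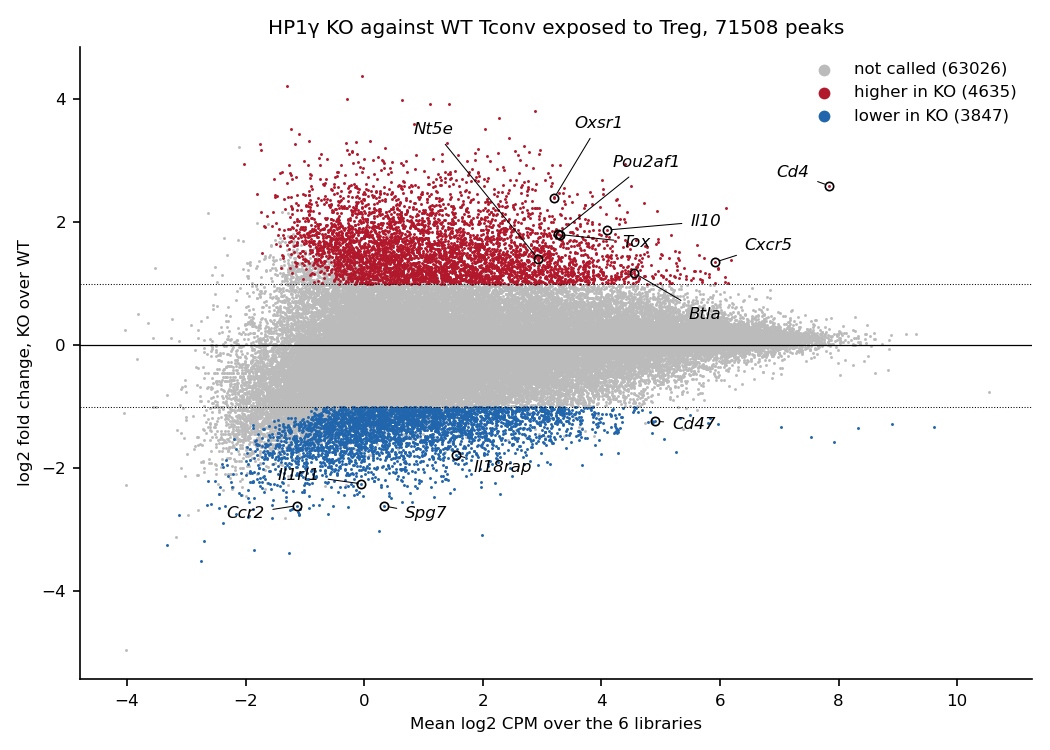
Log2 fold change between KO and WT Tconv with Treg (y axis) against the mean log2 CPM over the 6 libraries (x axis) for 71508 peaks, each a point. Red points (4635) are higher and blue points (3847) lower calls, the dotted lines lie at a log2 fold change of 1 and -1, and the peak at Cd4 stands apart at high accessibility.

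Called peaks lay mostly away from promoters. Of the higher and lower peaks, 19.4% and 19.6% were within 1 kb of a TSS, compared with 34.02% of all peaks, whereas introns held 50.7% and 53.5% of them compared with 42.9%. The median distance to the nearest protein-coding TSS was 20.1 kb for higher and 14.9 kb for lower peaks, against 8.36 kb overall. They were also of low accessibility, with median log2 CPM values of -0.05 for higher and 0.69 for lower peaks, against 1.28 for all peaks. Among the fifth of peaks with the lowest mean level, 13.7% were called higher and 5.87% lower, and among those with the highest level 0.52% and 0.70%. On chromosome 18, 9.03% of peaks were called higher and 5.47% lower, the largest share in total of any autosome, and on chromosome 17 the smallest, with 4.17% and 5.11%.

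The 5 higher peaks with the smallest p whose libraries did not overlap lay at Cd4 and closest to predicted genes. At the TSS of Cd4 (chr6:124856622-124866115), the KO libraries had 479, 602 and 631 CPM and the WT libraries 105, 99.9 and 74.5. KO was thus several times higher in every replicate, with a log2 fold change of 2.60 ± 0.10 (SE) and an edgeR adjusted p of 6.93e-11. KO cells carry the Cd4-cre transgene, which holds regulatory sequence of Cd4, and reads from the transgene and from Cd4 itself cannot be told apart in these counts. The change was as large without Treg, at 2.55, and in naive cells, at 2.77, and was called in both. A peak in an intron of 5730507C01Rik, nearest to Gm19786 (chr12:18599261-18600500), had 9.03, 7.34 and 7.16 CPM in KO and 0.424, 0.468 and 0.839 in WT. It was close to closed in WT, and its log2 fold change was 3.92 ± 0.25 (SE, edgeR adjusted p 6.01e-09). Peaks nearest to Gm23129 in an intron of Tmem117, to Gm29864 near Hpcal1 and to Gm62237 near Kcnk9 followed, with log2 fold changes of 3.29, 2.27 and 3.13. Absence of overlap was a condition for choosing these peaks.

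Among lower peaks, again taken only where the libraries did not overlap, the smallest p was found at an upstream start of Cd47 (chr16:49618511-49622560). This gene encodes the ligand of SIRPα that protects cells from phagocytosis. Its KO libraries had 17.5, 22.7 and 19.9 CPM and its WT libraries 46.0, 56.5 and 35.6. The log2 fold change was -1.23 ± 0.15 (SE, edgeR adjusted p 6.27e-05). This peak covers 1 of the 19 annotated starts of the gene, and the peak that covers 17 of them, with 169 to 192 CPM in KO and 154 to 193 in WT, was at -0.01 ± 0.08 (SE, edgeR adjusted p 0.965). A second peak of this group lay inside Ifngr2 (chr16:91358801-91359509), the gene of a subunit of the interferon-γ receptor, close to 1 of its 10 annotated starts, with 2.07, 2.91 and 2.64 CPM in KO and 6.54, 10.6 and 6.71 in WT. The log2 fold change there was -1.67 ± 0.22 (SE, edgeR adjusted p 0.000128). The others were a peak at an internal start of Spg7, which encodes a mitochondrial protease, at -2.61 ± 0.37 (SE), against -0.24 with no call at its main promoter, the most open peak over a start of the gene, a peak near Blm that is nearest to Gm73113, at -1.47, and a peak nearest to Gm31367 in an intron of Cdyl2, at -1.40. All 10 of these peaks kept their calls in each of the 32 alternatives.

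The letters under the called peaks were examined next, beyond 1 kb of a TSS, in the 300 bases at the middle of each peak. The AP-1 motif was present in 32.1% of the 3737 higher peaks, 10.8% of the 3094 lower peaks and 15.3% of all 47181 peaks there. The motif was thus more common in peaks that were more open in KO cells, and less common in those that were less open, than in peaks overall. The NFAT motif had the same order, with 13.9%, 6.76% and 7.54%. Repeated NFAT matches went otherwise. Of 208 peaks with 2 matches, 23.1% were called higher and 16.3% lower, and of 29 with 3 or more, 13.8% and 41.4%. The NR4A motif also had the order of AP-1, with 4.84%, 1.39% and 2.24%. NR4A proteins are nuclear receptors induced by TCR signals and linked with exhaustion. The reverse order was found for the GATA motif, with 14.9% of higher, 20.6% of lower and 15.7% of all windows, and the RUNX motif was present in 16.5%, 19.2% and 15.4%. Windows with the core of the motif of CTCF, AGGGGGC, were less common in both directions, at 2.86% and 2.59% against 6.17%, as were those with the ETS motif CCGGAAG, at 1.499% and 2.36% against 2.64%.

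For other motifs the shares were as follows. The IRF motif GAAANNGAA was found in 13.6% of higher, 9.92% of lower and 11.9% of all windows, and the TCF/LEF motif CTTTGAA in 11.3%, 8.18% and 9.16%. The shares for FOXO (GTAAACA) were 5.78%, 5.66% and 4.97%, and for STAT (TTCNNNGAA) 10.4%, 10.6% and 9.53%. All 4 lay closer to the share of all peaks than the AP-1 motif. Within 1 kb of a TSS the AP-1 motif was found in 25.3% of higher, 10.2% of lower and 8.61% of all windows, and the GATA motif in 11.4%, 18.5% and 9.53%. Across the alternative fits that were run on motifs, the AP-1 share of higher peaks ranged from 29.3% to 32.6%, and in windows of 500 bases it was 39.95%, against 21.5% of all peaks.

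The share of peaks called rose with the number of AP-1 matches. Of peaks with 0, 1, 2 and 3 or more matches, 6.35%, 15.4%, 24.8% and 36.4% were called higher and 6.90%, 4.86%, 3.19% and 1.01% lower, with 39979, 6382, 721 and 99 peaks in these classes. The median log2 fold change went from -0.16 through 0.08 and 0.49 to 0.76, and in naive cells it also rose, from 0.03 through 0.10 and 0.26 to 0.62, whereas in Tconv without Treg it stayed between 0.04 and 0.07. Over the 820 peaks with 2 or more matches, the median deviation of each KO library from the mean of the 6 was 0.69, -0.17 and 0.23 on the log2 scale, and that of each WT library was -0.09, -0.27 and -0.24. KO replicate 2 lay among the WT libraries, so that the genotypes overlapped in this measure, KO replicate 1 stood highest, and within each replicate number KO was higher. Peaks with both an AP-1 and an NFAT match were called higher in 25.8% and lower in 2.27% of 573 cases. The shares were 15.9% and 4.84% for AP-1 alone, 12.5% and 6.57% for NFAT alone and 5.85% and 6.93% for neither. With peaks split into 5 equal classes of mean level, the AP-1 share of higher peaks was 34.7% against 20.8% of all peaks in the lowest class and 19.8% against 13.1% in the highest.

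**Figure D2:**
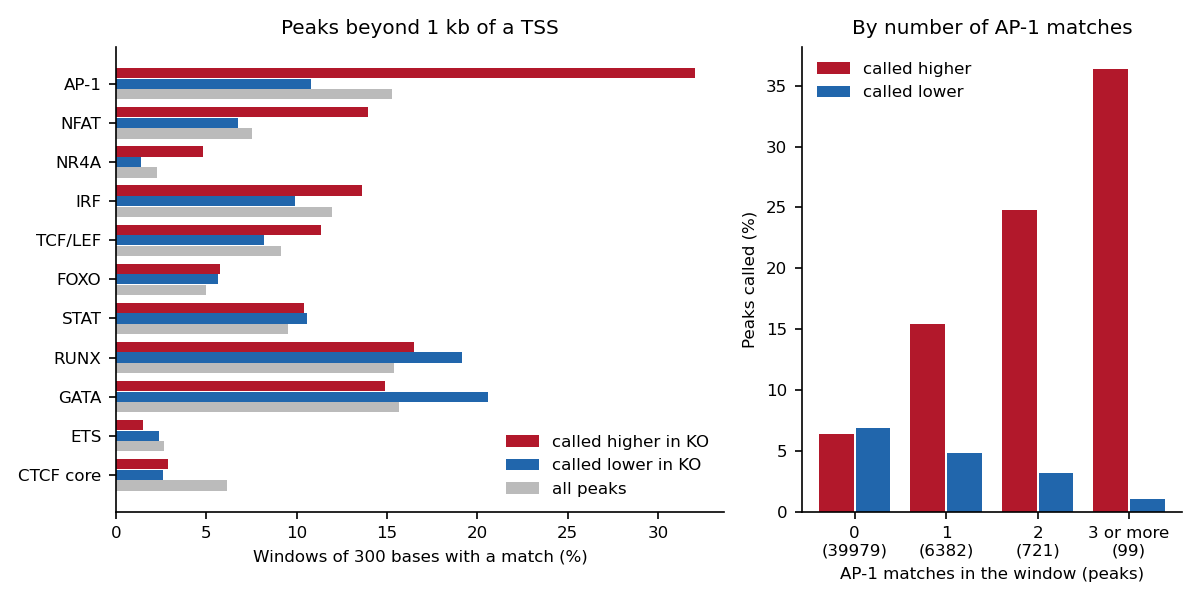
Left, share (x axis, %) of 300-base windows beyond 1 kb of a TSS with at least 1 match to each of 11 motifs (y axis), for peaks called higher in KO (red), called lower (blue) and all peaks (grey). Right, share of peaks called (y axis, %) by the number of AP-1 matches (x axis, with the number of peaks), where higher calls go from 6.35% to 36.4% and lower calls from 6.90% to 1.01%.

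Markers of other cell types were measured in the same libraries. Of 8 CD4 T cell markers all had a TSS peak, with a summed level of 1230 to 1427 CPM in KO and 667 to 873 in WT, a sum that contains Cd4. B cell markers had TSS peaks at 2 of 7 genes, summing to 15.2 to 19.2 CPM in KO and 9.37 to 12.5 in WT, and Cd79a, Cd79b, Ms4a1 and Blk were among those without one. Myeloid markers had them at 5 of 9 genes, with 73.7 to 101 CPM in KO and 56.3 to 67.6 in WT, and none at Csf1r, Lyz2, Adgre1 and S100a8. In these lists the KO range lay above the WT range. Over all their peaks, however, the median log2 fold change was -0.04 for CD4 T cell, -0.40 for B cell and -0.32 for myeloid markers. For the TSS peaks alone it was 0.71 for B cell and -0.09 for myeloid markers, with 1 myeloid TSS called higher and 1 lower. The higher one, at Cebpa, had 44.4, 34.9 and 39.7 CPM in KO and 21.4, 13.0 and 20.7 in WT. CD8 T cell markers had a TSS peak at 1 of 2 genes (3.51 to 5.07 CPM in KO, 3.91 to 5.87 in WT), erythroid markers at 4 of 5 (11.7 to 18.6 and 8.06 to 12.8) and NK cell markers at 0 of 4. B cell markers had 3 higher and 2 lower calls among 13 peaks (23.1% and 15.4%, against 6.48% and 5.38% of all peaks). Myeloid markers had 2 and 2 among 19 (10.5% each). The B cell kinase gene Blk had all 3 of its peaks called higher. The first had 23.4, 12.02 and 16.7 CPM in KO and 5.65, 2.998 and 6.27 in WT, at 1.86 ± 0.31 (SE, edgeR adjusted p 0.000651). Of the myeloid markers, 2 were called higher. An exon peak of Cd14, a receptor of monocytes, had 3.45, 1.04 and 2.91 CPM in KO and 0.212, 0.445 and 0.839 in WT, at 2.53 ± 0.45 (SE, edgeR adjusted p 0.000593), a call that held in all 32 alternatives, and the TSS of the myeloid factor gene Cebpa was at 1.12 ± 0.18 (SE, edgeR adjusted p 0.000412; 0.89 and not called without WT replicate 2). Called lower were 2 peaks each of Cd79b and the myeloid integrin gene Itgam and 1 of the NK receptor gene Klrb1c, at -1.02, which was lost in 15 of the 32 alternatives. The part of such cells in the other results was not tested.

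Inhibitory receptors and regulators of exhaustion and anergy were examined as the gene groups closest to the question of the study, where a peak counted for the gene whose TSS was closest. Of 142 peaks at 17 exhaustion and anergy regulators, 17 were called higher (background 6.48%) and 4 lower, with a median log2 fold change of 0.11 against -0.02 for all peaks. All higher calls were at Tox (14 of 44 peaks) and its paralogue Tox2 (3 of 9), and they were mostly distal, since only 2 of the 78 peaks within 10 kb of the TSS were called higher and 2 lower. The Tox intron peak shown above (chr4:6940371-6941880) had 26.2, 14.2 and 20.4 CPM in KO and 8.48, 4.24 and 3.22 in WT. KO exceeded WT in every library, with a log2 fold change of 1.80 ± 0.25 (SE, edgeR adjusted p 0.000196), and the called Tox peaks ranged from 1.003 to 1.83. At the TSS of Tox2 (chr2:163044071-163047780) the KO libraries had 115, 95.2 and 94.5 CPM and the WT libraries 59.0, 33.0 and 49.8. This peak was among the more open of the called ones, and its log2 fold change was 1.11 ± 0.17 (SE, edgeR adjusted p 0.000415), or 0.87 without WT replicate 2, where the call was lost.

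The lower calls of this group, 2.82% of its peaks against 5.38% of all peaks, were at Cblb, Dgkz, Nr4a3 and Prdm1, with 1 peak each. Cblb encodes an E3 ligase that enforces anergy, and its intron peak (chr16:51952801-51954060) had 3.57, 3.30 and 4.90 CPM in KO and 8.31, 9.96 and 7.55 in WT. The groups did not overlap, with a log2 fold change of -1.20 ± 0.22 (SE, edgeR adjusted p 0.00122). A peak in an intron of the nuclear receptor gene Nr4a3 was at -1.03 (edgeR adjusted p 0.00529), a call that was lost in 10 of the 32 alternatives, among them those without KO replicate 1 (-0.82) or WT replicate 2 (-0.86). Members with no call included Nr4a1, Nr4a2, Egr2, Egr3, Nfatc1 and Irf4. With KO replicate 1 left out the group had 13 higher and 2 lower calls, and with WT replicate 2 left out 12 and 2.

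The 14 inhibitory receptors had 5 higher and 6 lower calls among 55 peaks (9.09% and 10.9%, against 6.48% and 5.38% of all peaks), with a median of 0.16, and which direction led moved with the scaling (3 and 7 with library size alone, 5 and 3 with abundance offsets, 7 and 6 with GC offsets). The higher calls were at Btla, Havcr2 and Pdcd1. A peak inside Btla (chr16:45071651-45073670), the gene of an inhibitory receptor of the CD28 family, had 40.2, 35.3 and 32.6 CPM in KO and 20.01, 13.3 and 13.2 in WT. Every KO library exceeded every WT library, with a log2 fold change of 1.18 ± 0.17 (SE, edgeR adjusted p 0.000225), while the main promoter of Btla was at 0.48 (edgeR adjusted p 0.0303) and not called. The called peak at Pdcd1, the gene of PD-1 (chr1:93969401-93971080), had 52.2, 15.9 and 26.7 CPM in KO and 14.7, 17.1 and 8.61 in WT. It overlapped between genotypes because KO replicate 2 lay below WT replicate 2, and its log2 fold change of 1.18 ± 0.32 (SE, edgeR adjusted p 0.0166) became 0.55 without KO replicate 1, 1.34 without WT replicate 2 and 1.02 without WT replicate 3, with the call lost in each case. The Havcr2 peak shown above had 18.4, 7.22 and 11.0 CPM in KO and 7.35, 6.58 and 2.74 in WT, also with overlap, at 1.02 ± 0.30 (SE, edgeR adjusted p 0.0232). Its call was lost without KO replicate 1 (0.54), WT replicate 2 (1.08) or WT replicate 3 (0.83).

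Promoters of these receptors shifted by less than the fold used for calls, and in both directions. At the TSS of Pdcd1 the KO libraries had 125, 84.6 and 122 CPM and the WT libraries 71.6, 77.8 and 48.3, a difference of 0.71 (edgeR adjusted p 0.00413). The TSS peak of Ctla4 (chr1:60946401-60953640; chosen after its values were seen) had 148.7, 155 and 171 CPM in KO and 86.3, 87.6 and 78.1 in WT, at 0.90 (edgeR adjusted p 0.00185). Lag3 and Tigit had 0.78 ± 0.18 (SE) and 0.47 ± 0.12 (SE) at their TSS peaks, with edgeR adjusted p values of 0.00658 and 0.00938. In each of these 4 promoters all KO libraries lay above all WT libraries, and none was called. The promoters of Klrg1 and Lair1 were lower in KO, at -0.96 and -0.77 (edgeR adjusted p 0.0353 and 0.0284), while those of Cd101, at -0.40, Cd200r1, at -0.13, and Havcr2, at 0.20, did not pass the adjusted p. The promoter of Vsir was higher in KO, at 0.38 (edgeR adjusted p 0.00232), with 104 to 125 CPM in KO and 82.2 to 92.5 in WT. Summed over the TSS peaks of the 13 inhibitory receptors that had one, a sum to which the most open promoters give the most, the KO libraries had between 735 and 786 CPM and the WT libraries between 437 and 574. Such an order of ranges was not particular to these receptors. It was also found for costimulators (994 to 1112 in KO and 815 to 983 in WT) and cell cycle genes (814 to 894 and 723 to 812). The lower calls among inhibitory receptors were at Cd101, Cd200r1, Klrg1, Lair1 and Vsir. At Klrg1, a marker of terminally differentiated cells, the log2 fold change was -1.52 ± 0.33 (SE, edgeR adjusted p 0.00353), or -1.21 with no call without WT replicate 2, and at a peak nearest to Vsir, the gene of VISTA, in an intron of Cdh23, -1.37. Without KO replicate 1 the group had 2 higher and 3 lower calls, and without WT replicate 2 it had 1 and 1.

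Surface genes of anergic and suppressive cells had 6 higher and 2 lower calls among 58 peaks (10.3% and 3.45%, against 6.48% and 5.38% of all peaks), with a median of 0.14. A peak downstream of Il10, the gene of the suppressive cytokine (chr1:130965591-130967230), had 42.5, 24.9 and 37.6 CPM in KO and 11.9, 9.11 and 5.61 in WT. Even the lowest KO library was above the highest WT library, with a log2 fold change of 1.87 ± 0.21 (SE, edgeR adjusted p 3.19e-05). The TSS of Il10 was called too, at 1.01, and 3 of its 15 peaks in all. A peak in an intron of Nt5e, which encodes CD73 (chr9:88214031-88215200), had 15.9, 11.7 and 10.1 CPM in KO and 5.96, 3.37 and 5.12 in WT, without overlap, at 1.40 ± 0.19 (SE, edgeR adjusted p 0.000155). Entpd1, the gene of CD39, had an intron peak at 1.26 ± 0.28 (SE, edgeR adjusted p 0.00376), with 3.96, 3.17 and 3.54 CPM in KO and 1.85, 0.960 and 1.63 in WT, and 0.99 with no call without WT replicate 2. Another intron peak of Entpd1 was called lower, with 0.941, 0.664 and 1.33 CPM in KO and 2.74, 1.94 and 2.56 in WT, at -1.36 (edgeR adjusted p 0.00788). Izumo1r, which encodes folate receptor 4, had the remaining lower call, in an intron, at -1.21 ± 0.29 (SE, edgeR adjusted p 0.00699; -0.95 and not called without KO replicate 1), while its TSS peak was at 0.64 (edgeR adjusted p 0.00525) and not called. Leaving out KO replicate 1 gave this list 4 higher calls and 1 lower call, and leaving out WT replicate 2 gave 4 and 2.

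**Figure D3:**
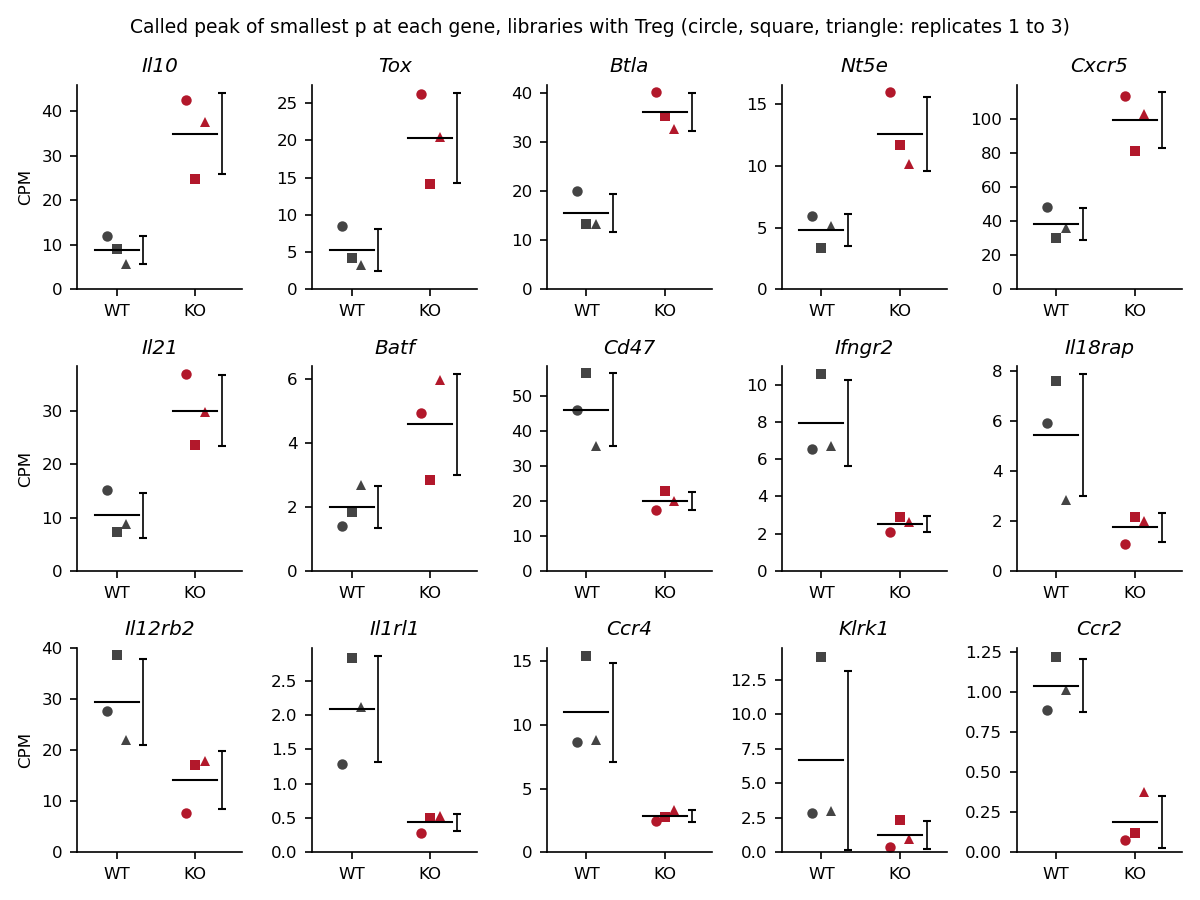
CPM (y axis) in the 3 WT and 3 KO libraries with Treg (x axis) at the called peak of smallest p of 15 genes. Circles, squares and triangles are replicates 1 to 3, lines are group means and bars are SD. KO lies above WT for the genes from Il10 to Batf and below it for those from Cd47 to Ccr2. The genes are a selection in which the libraries do not overlap in any panel. Pdcd1 and Havcr2, whose called peaks of smallest p overlapped between genotypes, are not shown.

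Genes of follicular helper cells had 6 higher and 0 lower calls among 49 peaks (12.2% higher, against 6.48% of all peaks), with a median of 0.29. Cxcr5, the chemokine receptor that leads cells into follicles, had 3 called peaks, and all 10 of its peaks had fold changes above 0. At its TSS (chr9:44434751-44440570) the KO libraries had 113, 81.0 and 103 CPM and the WT libraries 48.4, 30.3 and 36.0. The groups were well apart, with a log2 fold change of 1.35 ± 0.17 (SE, edgeR adjusted p 6.05e-05). Pou2af1, which encodes the coactivator OBF-1, had an exon peak (chr9:51149741-51150940) with 18.3, 18.6 and 19.9 CPM in KO and 7.38, 2.69 and 5.92 in WT, at 1.81 ± 0.21 (SE, edgeR adjusted p 3.22e-05). The single peak of Il21 (chr3:37286281-37287990), the cytokine of these cells, had 36.9, 23.5 and 29.7 CPM in KO and 15.3, 7.26 and 8.79 in WT, at 1.46 ± 0.20 (SE, edgeR adjusted p 0.000179). No peak of Bcl6, the master regulator of this lineage, was called. The group had 5 higher calls without KO replicate 1 and also without WT replicate 2.

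Th2 genes had 0 higher and 13 lower calls among 46 peaks (background 5.38% lower), with a median of -1.01, which was the lowest of the lists in this assignment of peaks to genes. Il1rl1 had 6 called peaks of 11. Its intron peak shown above (chr1:40480891-40481270) had 0.287, 0.494 and 0.527 CPM in KO and 1.29, 2.83 and 2.12 in WT. All KO libraries were lower, with a log2 fold change of -2.25 ± 0.39 (SE, edgeR adjusted p 0.00071). Ptgdr2, the gene of the prostaglandin receptor CRTH2, had 0.335, 0.596 and 0.653 CPM in KO and 1.23, 2.74 and 2.47 in WT at its called intron peak, at -1.99 ± 0.33 (SE, edgeR adjusted p 0.000552). At the chemokine receptor gene Ccr4 (chr9:114338131-114339550), the values were 2.44, 2.79 and 3.36 CPM in KO and 8.70, 15.4 and 8.83 in WT, and the log2 fold change was -1.99 ± 0.44 (SE, edgeR adjusted p 0.00431), or -1.65 with no call without WT replicate 2. These 3 peaks were several times less open in KO cells, but other peaks of the same genes differed less, with values up to 0.09 for Il1rl1, -0.0017 for Ptgdr2 and 0.30 for Ccr4. The Gata3 intron peak (chr2:9873801-9874580) had 0.70, 0.82 and 1.18 CPM in KO and 1.52, 2.37 and 2.38 in WT, at -1.21 (edgeR adjusted p 0.0118), and its call was lost without KO replicate 1 (-1.05) and without WT replicate 2 (-1.07). The main promoter of Gata3 (chr2:9874991-9885240) had 143, 158 and 149.6 CPM in KO and 156, 157 and 115 in WT, with overlap, at 0.06 (edgeR adjusted p 0.675). The TSS of the cytokine gene Il13 was at -1.38 (edgeR adjusted p 0.00606; -1.05 and not called without WT replicate 2). The list had 6 lower calls without KO replicate 1 and 3 without WT replicate 2. It had 10 with abundance offsets, 18 with library size alone and 23 with the replicate block. The called Th2 peaks named here, apart from that of Ccr4, had under 5 CPM in every library.

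Th1 genes had 0 higher and 10 lower calls among 83 peaks (12.05% lower, against 5.38% of all peaks), with a median of -0.19, at Il12rb2 (5 of 8 peaks), Il18rap (4 of 10) and Tbx21 (1 of 2). Il18rap encodes a chain of the IL-18 receptor, and a peak at an internal start (chr1:40562831-40563750) had 1.07, 2.16 and 2.01 CPM in KO and 5.92, 7.61 and 2.83 in WT. KO lay below WT in every library, with a log2 fold change of -1.79 ± 0.27 (SE, edgeR adjusted p 0.000252). At the main promoter of Il18rap the ranges overlapped, from 13.5 to 26.4 CPM in KO and from 19.9 to 41.5 in WT, and the value was -0.60 (edgeR adjusted p 0.0658). The TSS of Il12rb2 (chr6:67351801-67353810), the inducible chain of the IL-12 receptor, had 7.74, 17.1 and 17.8 CPM in KO and 27.7, 38.6 and 22.1 in WT, at -1.12 ± 0.27 (SE, edgeR adjusted p 0.00703). This call was lost without KO replicate 1 (-0.79) and without WT replicate 2 (-0.90). A peak in an intron of Tbx21, which encodes T-bet, was at -1.05 (edgeR adjusted p 0.0203), with -0.99 and -0.74 and no call without the same libraries. No peak of Ifng was called, and the one of smallest p was at -0.18 (edgeR adjusted p 0.225). With either of these libraries left out, the list had 3 lower calls, and it had 5 with GC offsets or in DESeq2 and 6 with abundance offsets.

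Cytotoxic and NK receptor genes had 0 higher and 5 lower calls among 29 peaks (17.2% lower, against 5.38% of all peaks), with a median of -0.39. At the TSS of Klrk1, the gene of the activating receptor NKG2D (chr6:129599011-129599890), the KO libraries had 0.415, 2.37 and 0.979 CPM and the WT libraries 2.87, 14.1 and 3.002. Replicate 2 was the highest of its group in both genotypes, the KO range lay below the WT range, and the log2 fold change was -2.47 ± 0.59 (SE, edgeR adjusted p 0.00714), or -1.96 without KO replicate 1 and -1.22 without WT replicate 2, neither called. Near Gzma, which encodes granzyme A, the peak of smallest p was at -1.64 ± 0.31 (SE, edgeR adjusted p 0.00159), and called peaks at Gzmb and Klrd1 were at -1.74 and -1.14, both lost without WT replicate 2 (-1.30 and -0.98). This list had 3 lower calls without KO replicate 1 and 1 without WT replicate 2.

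Homing receptors had 0 higher and 11 lower calls among 44 peaks (25% lower, against 5.38% of all peaks), with a median of -0.40. Ccr2, which draws cells to sites of inflammation, had an exon peak (chr9:123907721-123908020) with 0.0797, 0.119 and 0.377 CPM in KO and 0.887, 1.22 and 1.02 in WT. KO cells were nearly closed there, with a log2 fold change of -2.61 ± 0.44 (SE, edgeR adjusted p 0.00066). Cx3cr1, a receptor of effector cells, had 3 lower calls of 9 peaks, Cxcr6 and the integrin gene Itgb1 2 of 7 each, and Itgb7 and S1pr5 1 each. Their peaks of smallest p were at -1.12 for Cx3cr1, -1.50 for Cxcr6 and -1.22 for Itgb1, and the first was lost without KO replicate 1 (-0.87) and the last without WT replicate 2 (-0.93). The TGF-β pathway had 0 higher and 11 lower calls among 84 peaks (13.1% lower), with a median of -0.51, and between 5 lower calls with the TSS share as covariate and 15 with the replicate block. The calls were at the corepressor genes Ski (5 of 20) and Skil (1 of 6) and at the signal transducers Smad3 (4 of 24) and Smad4 (1 of 7), with log2 fold changes of -1.08, -1.39, -1.24 and -1.57 at the peaks of smallest p. The Ccr2 and Cxcr6 peaks named here kept their calls in all 32 alternatives. Without KO replicate 1, homing receptors had 5 lower calls and the TGF-β pathway 1, and without WT replicate 2 they had 4 and 2.

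Costimulators had 1 higher and 8 lower calls among 64 peaks (12.5% lower, against 5.38% of all peaks), with a median of -0.25, but 2 lower calls with GC offsets, 3 with abundance offsets and 4 in DESeq2. The Slamf1 intron peak shown above (chr1:171623791-171624110) had 0.415, 1.28 and 0.728 CPM in KO and 2.35, 4.90 and 2.34 in WT. The ranges were separate, with a log2 fold change of -2.02 ± 0.36 (SE, edgeR adjusted p 0.000875). Cd226, an activating receptor that shares its ligands with Tigit, had 5 of 18 peaks lower, the first at -1.11 (-0.78 and not called without KO replicate 1). The higher call was in an intron of Tnfsf8, the gene of CD30 ligand (chr4:63770341-63773040), with 19.95, 23.3 and 31.3 CPM in KO and 11.5, 9.84 and 11.0 in WT, at 1.18 ± 0.19 (SE, edgeR adjusted p 0.000484). Without KO replicate 1 the list had 1 higher and 3 lower calls, and without WT replicate 2 it had 1 and 4.

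Genes of the naive and memory state had 1 higher and 8 lower calls among 129 peaks, with a median of -0.49. Lower calls were 6.20% of these peaks, against 5.38% of all peaks, and their number moved from 6 with GC offsets to 17 in DESeq2 and 21 with the replicate block. Inside Satb1, the gene of a chromatin organizer of T cells (chr17:52111371-52115220), the KO libraries had 3.06, 6.25 and 6.03 CPM and the WT libraries 11.3, 12.3 and 13.95. All WT libraries were higher, with a log2 fold change of -1.30 ± 0.29 (SE, edgeR adjusted p 0.00528; -0.99 and not called without KO replicate 1). The more open peaks over the annotated starts of Satb1 were at -0.39 (49.7 to 72.8 CPM in KO, 74.3 to 85.4 in WT) and -0.61, neither called. Foxp1, which keeps T cells quiescent, had 1 higher and 4 lower calls among 48 peaks. Its intron peak of smallest p was higher, with 24.9, 14.6 and 17.5 CPM in KO and 11.4, 7.47 and 5.96 in WT, at 1.12 ± 0.21 (SE, edgeR adjusted p 0.00179; 0.86 without KO replicate 1 and 0.99 without WT replicate 2, neither called). Treg identity genes had 1 higher and 4 lower calls among 45 peaks (2.22% and 8.89%, against 6.48% and 5.38% of all peaks), with a median of -0.27, and 2 lower calls with abundance offsets and 6 with the replicate block. The peak over the first start of Foxp3 (chrX:7436281-7441650), which also covers starts of Ppp1r3f and Flicr, was wide open in all libraries, with 88.5, 99.6 and 90.95 CPM in KO and 101, 94.8 and 86.9 in WT, at -0.03 ± 0.08 (SE, edgeR adjusted p 0.832). A weaker peak over a later start of Foxp3 had 1.86 to 2.17 CPM in KO and 2.23 to 2.56 in WT, at -0.26 ± 0.20 (SE, edgeR adjusted p 0.360). Neither was called. Il2ra, which encodes CD25, had an intron peak at -1.35 ± 0.26 (SE, edgeR adjusted p 0.00213), whereas a peak next to the promoter of Ikzf2, the gene of Helios, was at 1.31 ± 0.31 (SE, edgeR adjusted p 0.00722; 1.003 and not called without KO replicate 1). The promoter of Ikzf2 itself was at 0.75 (edgeR adjusted p 0.00297), with all KO libraries above all WT libraries, and was not called. The naive and memory list had 0 higher and 3 lower calls when KO replicate 1 was left out and 0 and 6 when WT replicate 2 was, and the Treg list 0 and 2, and 1 and 2.

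Calls in both directions were found for TCR signalling (5 higher, 2 lower of 162 peaks, or 3.09% and 1.23% against 6.48% and 5.38% of all peaks, median 0.08, and between 4 higher and 4 lower with library size alone and 10 and 1 with abundance offsets), AP-1 and Maf factors (1 and 1 of 31, or 3.23% each, 0.14), cytokines and receptors of the common γ chain with STAT factors (3 and 2 of 81, or 3.70% and 2.47%, -0.11) and Th17 genes (2 and 4 of 56, or 3.57% and 7.14%, 0.13). Without KO replicate 1 these lists had, in this order, 3 and 0, 0 and 1, 0 and 2, and 0 and 1 calls. Without WT replicate 2 they had 3 and 1, 0 and 1, 1 and 1, and 0 and 2. With abundance or GC offsets, Th17 genes had 3 higher and 2 lower calls. Batf, the AP-1 factor with a role in exhaustion, had the higher call of its list (chr12:85725531-85726770), with 4.93, 2.84 and 5.95 CPM in KO and 1.41, 1.85 and 2.69 in WT. The lowest KO library was only just above the highest WT library, and the log2 fold change was 1.28 ± 0.33 (SE, edgeR adjusted p 0.0113), a call that was lost without KO replicate 1 (1.18), WT replicate 1 (1.05) or WT replicate 2 (1.28). Called peaks in Lcp2 and Cd6, which encode an adaptor and a coreceptor of the TCR, were at 1.69 and 1.40, and one in an intron of the kinase gene Lck at -1.74. Interferon-stimulated genes and housekeeping promoters had 0 higher and 1 lower call each, among 18 and 21 peaks. Cell cycle genes and the genes of HP1 proteins and H3K9 methylation had 0 calls among 25 peaks each, and the peak of smallest p at Cbx5, which encodes HP1α, was at 0.49 (edgeR adjusted p 0.0128).

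Other ways of assigning peaks to genes changed several of these counts. With the nearest protein-coding TSS, which also brings in peaks closest to RNA genes, the lists hold more peaks. The exhaustion and anergy regulators then had 44 higher and 11 lower calls of 390 peaks (11.3% and 2.82%). The follicular helper genes had 19 and 6 of 170 (11.2% and 3.53%). Of all peaks, 6.48% were called higher and 5.38% lower. Inhibitory receptors turned from more lower to more higher calls (12 and 8 of 117, or 10.3% and 6.84%). So did Treg identity genes (11 and 6 of 78, or 14.1% and 7.69%, median 0.03) and Th17 genes (10 and 8 of 105, or 9.52% and 7.62%). For the surface genes of anergic and suppressive cells the counts were 8 and 5 of 102 (7.84% and 4.90%), with a median of -0.02. Lower calls stayed in the majority for Th2 (8 and 24 of 140, median -0.53), Th1 (9 and 26 of 224), homing receptors (13 and 35 of 183), the TGF-β pathway (2 and 38 of 271) and the naive and memory state (15 and 68 of 611, median -0.58). Within 10 kb of the nearest TSS, the Th2 list had 0 higher and 10 lower calls (27.8%) of 36 peaks, and the follicular helper list 6 (13.0%) and 0 of 46.

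**Figure D4:**
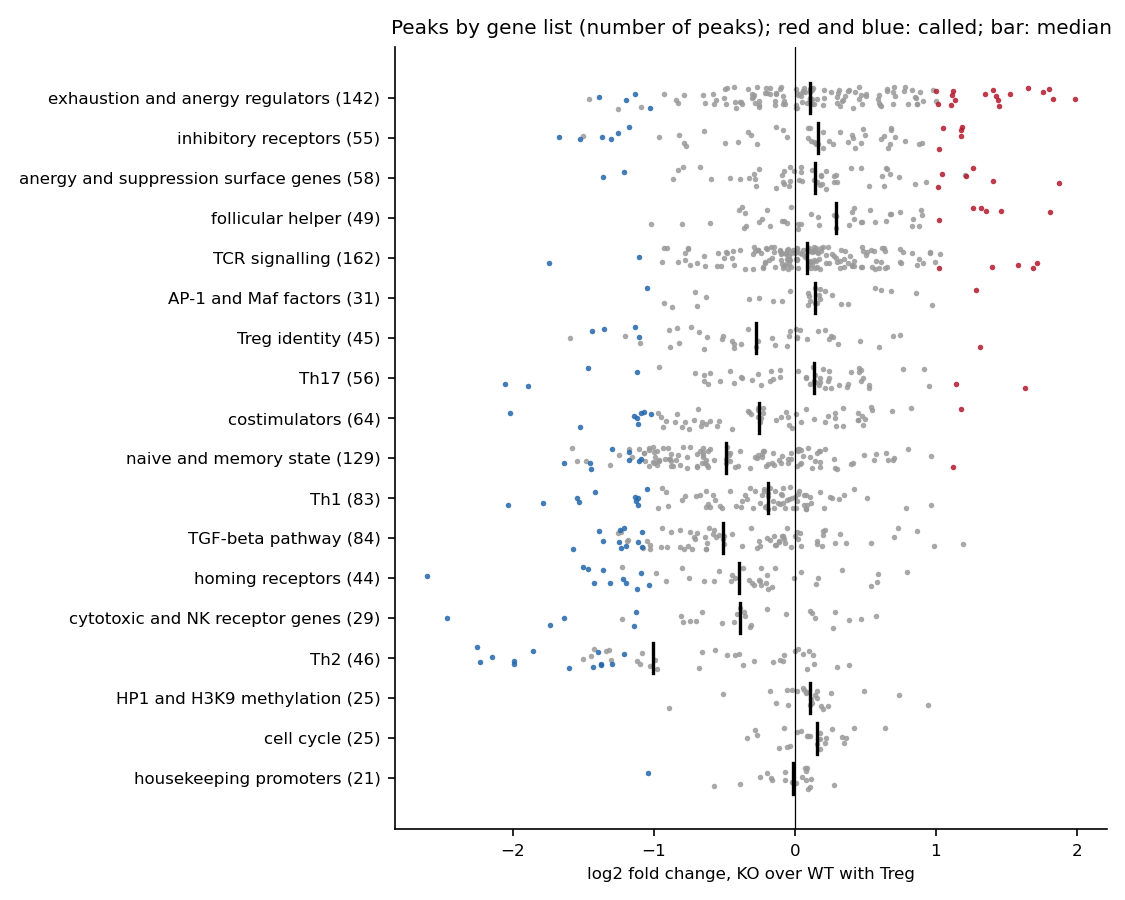
Log2 fold change between KO and WT with Treg (x axis) of every peak assigned to the genes of each list (y axis, with the number of peaks). Grey dots were not called, red and blue dots were called higher and lower, and the black bar is the median, which lies at -1.01 for Th2 genes and at 0.29 for follicular helper genes.

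Some genes gathered many called peaks. Tox had the most higher ones, followed by Msi2, which encodes an RNA-binding protein (10 of 26, from 1.04 to 2.44), Phactr2 (9 of 12), Oxsr1 (8 of 10, from 1.55 to 2.57), Cfap53 (8 of 8), Rapgef5 (7 of 7) and the GATA-type repressor gene Trps1 (7 of 21), none of which had a lower call. The RNA genes ENSMUSG00000139990 near Rplp1, Gm60174 near Mrpl39, Gm15654 near Csgalnact1 and Gm48706 near Cdyl had 10, 9, 7 and 7 higher calls. The Oxsr1 peak with the repeated AP-1 motif (chr9:119094391-119095650) had 28.1, 16.0 and 22.6 CPM in KO and 5.36, 3.72 and 2.87 in WT. No KO library came near the WT range, with a log2 fold change of 2.39 ± 0.24 (SE, edgeR adjusted p 1.64e-05), while the main promoter of Oxsr1 was at 0.11 and not called. At Msi2 (chr11:88457361-88458430) the values were 32.4, 17.6 and 30.9 CPM in KO and 8.52, 4.78 and 4.81 in WT, at 2.07 ± 0.32 (SE, edgeR adjusted p 0.000391). With peaks assigned to the nearest protein-coding gene, Tox had 22 higher calls of 92 peaks, Msi2 16 of 50, Rplp1 16 of 39 and Rapgef5 15 of 29.

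The genes with the most lower calls were 4933426K07Rik near Galnt10 (10 of 15), Mir101c (9 of 15), Sgms1 (9 of 47), which encodes a sphingomyelin synthase, and the RNA genes Gm36723 near Id2 (8 of 25) and Gm64234 near Itgb1 (8 of 9). At Sgms1 (chr19:32338361-32340460) the KO libraries had 1.36, 1.89 and 1.88 CPM and the WT libraries 4.203, 4.43 and 6.36. There was no overlap, and the log2 fold change was -1.49 ± 0.25 (SE, edgeR adjusted p 0.000785). Others had 7 lower calls each, among them the ankyrin repeat gene Ankrd44, the ganglioside synthase gene St8sia1, Vav3, a signal transducer that also had 1 higher call at 2.17, and Gm71991 near Cox10, where all 7 peaks were lower, from -2.53 to -1.45. With protein-coding genes alone, Zfp386 had 21 lower calls of 84 peaks and Cox10 20 of 29. Arl4c, Itgb1 and Id2, an inhibitor of E proteins, had 17 each, of 31, 34 and 59 peaks. Itgb1 also had 1 higher call and Id2 3. By number of calls rather than by share of peaks, the windows of 500 kb with the most calls in each direction, listed after their values were seen, were chr4:6500001-7000000 around Tox, with 20 higher and 0 lower of 68 peaks, and chr11:54000001-54500000 with the cytokine genes Csf2 and Il3, with 2 higher and 22 lower of 67.

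To place the change with Treg beside that in the other conditions, the same KO and WT comparison was read in Tconv without Treg and in naive cells, which share no library with it. Without Treg, higher calls made up 1.69% and lower calls 1.66% of all peaks, and in naive cells 0.133% and 0.00699%. Of the 4635 peaks called higher with Treg, 789 (17.0%) were also called higher without Treg and 28 (0.604%) in naive cells, and 2 were called lower without Treg. Of the 3847 called lower, 506 (13.2%) were called lower without Treg, 1 in naive cells, and 0 were called higher without Treg. The lower peaks had a median log2 fold change of -0.49 without Treg, with the same sign at 81.4% of them against 47.0% of all peaks, and of -0.03 in naive cells, with the same sign at 53.7% against 45.2%. For the higher peaks these medians were 0.88 and 0.82, and the shares of the same sign were 95.7% against 53.0% without Treg and 88.5% against 54.8% in naive cells.

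Single genes differed in this respect. At Tox, Il10, Il21, Pou2af1, Oxsr1 and Msi2 the same peak was also called higher without Treg, with log2 fold changes of 1.38, 1.07, 1.34, 1.52, 1.28 and 1.41, and Il1rl1 and Ccr4 were called lower, at -1.47 and -1.83. At Btla, Nt5e and Cxcr5 the values without Treg were 0.57, 0.38 and 0.84 and not called, and in naive cells 0.17, 0.04 and -0.21. Of the lower peaks, Cd47 and Il18rap had -0.73 and -0.53 without Treg and 0.07 and -0.22 in naive cells, none of them called. A threshold passed in one condition and missed in another does not show a difference, and the difference itself was tested.

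**Figure D5:**
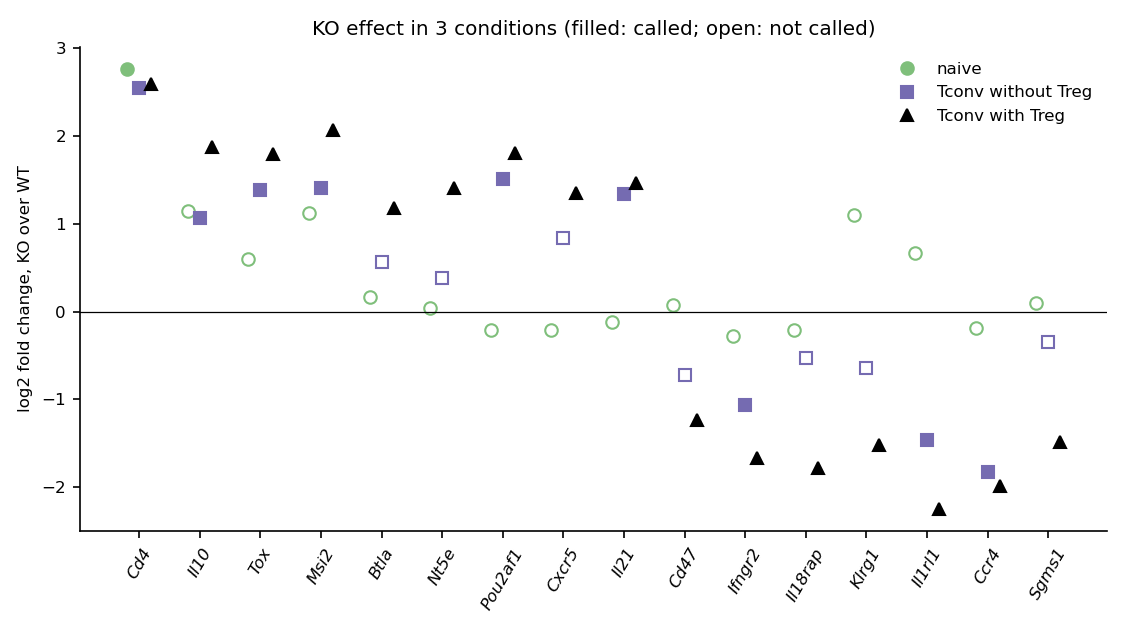
Log2 fold change between KO and WT (y axis) at the called peak of smallest p of 16 genes (x axis), in naive cells (green circles), Tconv without Treg (purple squares) and Tconv with Treg (black triangles). Filled symbols were called and open ones were not; Cd4 is near 2.6 or above in all 3 conditions, whereas Cd47 goes from 0.07 in naive cells to -1.23 with Treg.

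Whether the KO effect with Treg differed from that without Treg was tested as an interaction in the same fit, and 1 of 71508 peaks (0.0014%) was called, with 9150 at an unadjusted p under 0.05. The peak lay in an intron of the ion channel gene Trpm6 (chr19:18743671-18744330) and is named after its values were seen. With Treg it had 9.87, 7.07 and 9.72 CPM in KO and 2.78, 3.79 and 4.15 in WT, a log2 fold change of 1.36 ± 0.24 (SE), whereas without Treg it was called lower, at -1.05, and the difference of 2.42 had an edgeR adjusted p of 0.030. Other fits gave other counts. DESeq2 called 156 peaks higher and 643 lower, and the replicate block 296 higher and 403 lower, but 0 were called with limma, with the older quasi-likelihood method or with only the groups compared. The replicate numbers were taken to pair the libraries with Treg, while without Treg only 2 of the 3 pairs deviated together.

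Against naive cells, 335 peaks (0.468%) differed in KO effect, 156 (0.218%) with a higher and 179 (0.25%) with a lower value with Treg, and 12472 had an unadjusted p under 0.05. Among them were Cxcr5, with a difference of 1.56, Pou2af1, with 2.02, Cd47, with -1.31, Satb1, with -1.51, and Sgms1, with -1.58. The replicate block gave 967 and 3514, and DESeq2 958 and 2715. Leaving out single libraries gave between 0 and 752 higher and between 0 and 1213 lower calls.

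The called peaks were also set beside the response of WT cells to transfer, measured between WT Tconv without Treg and WT naive cells, which again share no library with the comparison. In that response 24.5% of all peaks opened and 22% closed. Peaks that opened made up 2553 (55.1%) of those called higher in KO with Treg and 1523 (39.6%) of those called lower, and peaks that closed made up 367 (7.92%) and 1158 (30.1%). Seen from the other side, of the peaks that opened in activated WT cells 14.6% were called higher and 8.70% lower in KO with Treg, and of those that closed 2.34% and 7.37%. Among higher peaks beyond 1 kb of a TSS, the AP-1 motif was present in 34.9% of those that opened in the WT response and in 30.2% of those that did neither, against 23.3% and 13.2% of all peaks of each kind.

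A further set of lower peaks lay at the starts of chromosomes, and was chosen after its values were seen. In the first 200 kb after base 3000000 of the autosomes and X, where the assembled sequence begins, 36 of 100 peaks were called lower and 0 higher, with a median log2 fold change of -1.24. Of all peaks, 5.38% were called lower and 6.48% higher. Of the 36, 15 were on chromosome 11, 9 on chromosome 9 and 7 on chromosome 3. Those on chromosome 9 are the lower peaks of Mir101c already counted above, so the 2 results are not separate. Summed over the 100 peaks, the KO libraries had 893, 1133 and 1584 CPM and the WT libraries 1565, 2192 and 3247. KO replicate 3 lay above WT replicate 1, so the genotypes overlapped in this sum, and within each replicate number KO was lower. The median was 0.26 without Treg and 1.05 in naive cells, and 4 peaks were called lower without KO replicate 1, 3 without WT replicate 2 and 63 with the replicate block.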

How the data were processed

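ATAC-seq libraries of mouse CD4 T cells were analysed from the deposited table, which holds raw read counts for each consensus peak with no scaling by the authors. To make it, the authors trimmed reads with Trim Galore 0.6.7, aligned them to GRCm39 with BWA-MEM2, filtered them for mapping quality and duplicates, merged the peaks that HMMRATAC found sample by sample, and ran featureCounts 2.0.3. Reads spanning neighbouring peaks could be counted in both. Of 71512 intervals, 3 had no width and were left out, and 71508 of the remaining 71509 passed filterByExpr. All 36 columns were matched to samples by title, and 0 were left over. Locations and nearest TSS came from GENCODE vM39, and sequences from GRCm39.

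The 18 HP1γ libraries (naive, Tconv, Tconv with Treg) were fitted together, so that all groups share 1 estimate of the spread (biological coefficient of variation 22.2%), with TMM scaling and the quasi-likelihood test of edgeR 4.0.16 in R 4.3.3, two-sided, with Benjamini-Hochberg adjustment over all peaks. The thresholds for a call were 0.05 for the adjusted p and 1 for the size of the log2 fold change. CPM are per M reads in peaks after TMM, with a prior count of 2 on the log2 scale. On simulated counts of this design, 98.5% of 200 peaks changed by 2 on the log2 scale were recovered, with 6 false calls. The simulation gave all peaks the same spread and had no effect of library or replicate. Its changes were also larger in size than the medians of the called peaks, 1.48 and -1.34. It therefore does not give the rate of false calls in these data. With 19.4 to 64.2 M reads in peaks a library, counting error was largest at peaks of low level. Motifs, 17 in all, were searched on both strands in the middle 300 bases of each peak.

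The members, the 26 gene lists and the motifs were chosen with earlier results of these data known. Named genes were Cbx3, the 5 called peaks of smallest p in each direction without overlap between genotypes, the genes with the most called peaks, up to 4 members of each list by their called peak of smallest p, and Foxp3, Lag3, Tigit, Ifng, Nt5e and Izumo1r. Genes outside this rule are marked in the text, and 1 marker gene is not reported here by name. In the comparison with Treg, libraries of the same replicate number deviated together from their group means (correlations of 0.28, 0.15 and 0.32), so the numbers were taken to pair them, although what the numbers mean is not given in the labels. A pairing was accepted where every correlation was over 0.1, which did not hold in Tconv without Treg (0.54, 0.08 and 0.24) or in naive cells (0.26, -0.07 and 0.19). Alternatives were library size alone, loess offsets (span 0.3) on abundance or GC content, no filter, autosomal peaks, fitting only the groups compared, the replicate block alone, with GC offsets or with log2 depth, log2 depth or the TSS share as covariate, limma 3.58.1 with quality weights, DESeq2 1.42.0, the older quasi-likelihood method of edgeR, which was chosen after seeing the data, and leaving out each library. Figures were drawn with matplotlib 3.10.9 in Python 3.11.15.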

Additional observations from a re-analysis of the deposited data

Results flagged for a closer look

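The KO effect with Treg was tested against the KO effect in the other conditions, and the edgeR interaction gave 1 peak against Tconv without Treg and 156 higher and 179 lower peaks against naive cells. Against Tconv the peak lay in Trpm6, with a difference of 2.42 on the log2 scale and an edgeR adjusted p of 0.030. Against naive cells, the named peaks whose KO effect was larger in the positive direction with Treg were those of Pou2af1, by 2.02, and Cxcr5, by 1.56. Those with a more negative effect with Treg were the peaks of Cd47, at -1.31, Satb1, at -1.51, Sgms1, at -1.58, Gm73113 near Blm, at -1.37, Gm31367 in Cdyl2, at -1.26, Gm44937 near Atp10a, at -1.42, and Gm71991 near Cox10, at -1.99. For these 9 genes the edgeR adjusted p values lay between 0.013 and 0.049. Groups of 3 libraries are too small for a search for single libraries far from the others.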

How the results depend on the processing

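Beyond the values given in the report, the number of calls with Treg fell to 2018 higher and 1638 lower when only the groups compared were fitted, and leaving out single libraries gave 2394 to 6716 higher and 1307 to 5134 lower calls. Of 102 named called peaks, 50 kept their call in all 32 alternatives, 0 were lost under the replicate block, 37 were lost without KO replicate 1, 39 without WT replicate 2 and 32 with only the groups compared, and 0 were reversed. The peak of Hnrnpa2b1 and Cbx3, which was not called, went from 0.11 to -0.033 with loess offsets on abundance. The difference in KO effect from Tconv without Treg (1 higher, 0 lower) was 156 and 643 with DESeq2, 105 and 9 with the TSS share as covariate, 7 and 1 with abundance offsets, 296 and 403 with the replicate block, 1106 and 459 with the block and GC offsets, and 0 and 0 with the block and log2 depth, only the groups compared, library size, limma, log2 depth or the older method, and leaving out single libraries gave 0 to 205 and 0 to 80. The difference from naive cells (156 and 179) was 958 and 2715 with DESeq2, 273 and 794 with only the groups compared, 984 and 2963 with limma, 292 and 117 with GC offsets, 281 and 294 with abundance offsets, 11 and 8 with log2 depth, 314 and 981 with the older method, 967 and 3514 with the block, 1543 and 2356 with the block and GC offsets, 286 higher with the TSS share, 693 lower with the block and log2 depth and 316 lower with library size, and 0 to 752 and 0 to 1213 without single libraries. The block raised the share of peaks called from 14.5% to 19.2% on chromosome 18 and from 9.28% to 13.2% on chromosome 17. Peaks of the gene lists called, 55 higher and 98 lower, were 195 and 293 with the nearest protein-coding TSS and 30 higher within 10 kb. In windows of 500 bases the shares of higher and lower peaks were 39.95% and 16.4% for AP-1, 20.8% and 10.8% for NFAT, 6.61% and 2.10% for NR4A and 24.2% and 30.6% for GATA. With abundance offsets the AP-1 share of higher peaks was 30.6%. Without KO replicate 1 the shares were 29.3% and 12.5% for AP-1, 17.0% and 4.69% for NFAT and 16.5% and 20.6% for GATA, and without WT replicate 2 they were 16.3% and 5.08% for NFAT, 15.4% and 18.3% for GATA and, for AP-1, 31.4% among higher peaks. Lower calls at chromosome starts, 36, were 63 with the block, 4 without KO replicate 1 and 3 without WT replicate 2. The cause of these changes was not tested.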
